A study of Mus musculus with 6 samples.

Results

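The genes described here are *Slc7a10* and 9 other genes of plasma membrane amino acid transport: *Slc7a5*, *Slc7a8*, *Slc7a11*, *Slc3a2*, *Slc1a3*, *Slc1a4*, *Slc1a5*, *Slc38a2* and *Slc36a2*. They were selected by gene symbol from the 19445 loci of the deposited expression table, and where a symbol stood on several rows the row with the highest mean was taken. The list was drawn up with the difference between the genotypes already known, so the values below describe these genes and carry no test of their own. Of the 10 genes, 9 were among the 11692 loci with a mean above 1 FPKM (reads per length of transcript, relative to all mapped reads of the library) in at least 1 genotype, and *Slc7a11* was not.

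The RNA came from inguinal white adipose tissue (iWAT, the subcutaneous fat depot of the groin) of 12-week-old mice that carried an *Hlx* transgene (TG, n = 3) and of wild-type (WT, n = 3) littermate controls, with 1 library per mouse. The transgene places the *Hlx* cDNA behind the aP2 (*Fabp4*) promoter, which drives it in fat, and it was made in C57BL/6 × SJL hybrid embryos and then backcrossed to C57BL/6. Both genotypes were untreated, and the sources used here do not say how many founder lines the sequenced mice came from. The labels give all 6 mice as male, but every library held *Xist* RNA, at 20.2 to 33.6 FPKM, and the 28 Y-chromosome loci of the table were at 0 FPKM in all 6.

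The transporter ASC-1, encoded by *Slc7a10*, exchanges small neutral amino acids such as alanine, serine, glycine and cysteine, and accepts both L- and D-serine. It is a light chain that reaches the cell surface joined by a disulfide bond to a glycoprotein heavy chain, 4F2hc, encoded by *Slc3a2*. In fat, ASC-1 is used as a surface marker of white adipocytes, whereas the proton-coupled transporter PAT2, encoded by *Slc36a2*, and the purinergic receptor P2RX5 are used as surface markers of brown and beige adipocytes.

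RefSeq promoters of build GRCm38.p6, from 250 bases before to 50 bases after the transcription start, were at hand for 7 of the 10 genes (*Slc7a10*, *Slc7a8*, *Slc7a11*, *Slc3a2*, *Slc1a3*, *Slc1a4* and *Slc38a2*). The promoter of *Slc7a10* is printed because its RNA differs most between the genotypes, and those of *Slc7a11* and *Slc1a4* because they hold the amino acid response element (CARE), a site through which amino acid shortage acts on transporter genes. The *Slc7a10* window, chr7:35186135-35186434 on the plus strand, has a GC content of 70.7% and 24 CpG. Across the 32851 promoters of the table the median GC content was 52.7% and the median CpG number 7. The *Slc7a11* window is chr3:50443564-50443863 and the *Slc1a4* window chr11:20332664-20332963, both on the minus strand. Each line reads 5′ to 3′ on the gene's own strand, and capitals mark matches to CARE or to the C/EBP site.
Slc7a10: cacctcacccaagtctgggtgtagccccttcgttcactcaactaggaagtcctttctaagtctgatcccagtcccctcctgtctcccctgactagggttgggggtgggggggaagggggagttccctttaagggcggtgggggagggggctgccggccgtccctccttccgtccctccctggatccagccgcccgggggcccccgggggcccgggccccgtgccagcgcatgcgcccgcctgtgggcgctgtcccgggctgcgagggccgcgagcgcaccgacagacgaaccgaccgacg
Slc7a11: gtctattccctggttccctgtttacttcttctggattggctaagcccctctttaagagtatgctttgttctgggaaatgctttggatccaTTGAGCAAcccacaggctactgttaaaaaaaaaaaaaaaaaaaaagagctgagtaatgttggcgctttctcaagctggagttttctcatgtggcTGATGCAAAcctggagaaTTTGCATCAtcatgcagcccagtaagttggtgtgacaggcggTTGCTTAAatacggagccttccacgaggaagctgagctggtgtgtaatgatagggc
Slc1a4: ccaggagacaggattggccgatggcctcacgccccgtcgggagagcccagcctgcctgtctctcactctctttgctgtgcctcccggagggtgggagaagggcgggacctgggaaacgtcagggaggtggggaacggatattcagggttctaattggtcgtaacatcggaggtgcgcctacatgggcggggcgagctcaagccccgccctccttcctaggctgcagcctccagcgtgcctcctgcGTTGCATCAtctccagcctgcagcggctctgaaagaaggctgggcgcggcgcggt

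Both strands were searched for 6 motifs, and matches may overlap. CARE, spelled TGATGNAAN, occurred in 3.95% of all promoters and in 2 of the 7 here. *Slc7a11* held 2 matches, at -66 on its own strand and at -48 on the opposite strand, and *Slc1a4* held 1, at -5 on the opposite strand. The C/EBP site TTGCNNAA, found in 10.8% of all promoters, had 2 matches in that of *Slc7a11*. The TATA box TATAAA was found in 13.6% of all promoters and in that of *Slc1a3*, on the opposite strand. The antioxidant response element core TGACNNNGC was found in 12.4% of all promoters and in that of *Slc38a2*. The cAMP response element TGACGTCA, in 1.79% of all promoters, and the DR1 element of PPAR and RXR, in 0.0396%, occurred in none of the 7. None of the 6 spellings was in the *Slc7a10* window, which says only that these letters are not there.

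*Hlx*, the gene carried by the transgene, was at 110, 79.6 and 99.5 FPKM in TG mice 1, 2 and 3 and at 6.88, 7.35 and 8.14 FPKM in WT mice 1, 2 and 3. Every TG mouse was above every WT mouse, and the log2 fold change was 3.51 (standard error (SE) 0.13). Here and below, log2 fold changes are TG over WT on the log2(FPKM + 1) scale, fitted with limma, and they understate the change of genes with low FPKM. A gene passed the call where limma's p, adjusted over the 11692 loci, was under 0.05. The absolute depth of the libraries is unknown. Read from the steps between values under 0.3 FPKM, the relative depth was 0.714, 1.14 and 0.692 in TG mice 1, 2 and 3 and 0.943, 1.41 and 1 in WT mice 1, 2 and 3, so the lowest values are least precise in TG mice 1 and 3.

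*Slc7a10* RNA was low in every TG mouse and abundant in every WT mouse. It was listed on chromosome 7 of mm10 from 35186358 to 35215345. Its values were 2.14, 6.08 and 2.61 FPKM in TG mice 1, 2 and 3 and 81.0, 74.9 and 55.6 FPKM in WT mice 1, 2 and 3. The lowest WT mouse stood far above the highest TG mouse, which was mouse 2. The means were 3.61 ± 2.15 FPKM in TG and 70.5 ± 13.2 FPKM in WT iWAT (SD, n = 3 mice each), a WT mean 19.5-fold the TG mean. The log2 fold change was -4.03 (SE 0.31), and it was -4.39 without TG mouse 2. Ordered from the lowest log2 fold change, it took place 2 of the 11692 loci tested. *Slc7a10* stood above 91.3% of the tested loci in WT iWAT and above 21.7% of them in TG iWAT.

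**Figure D1:**
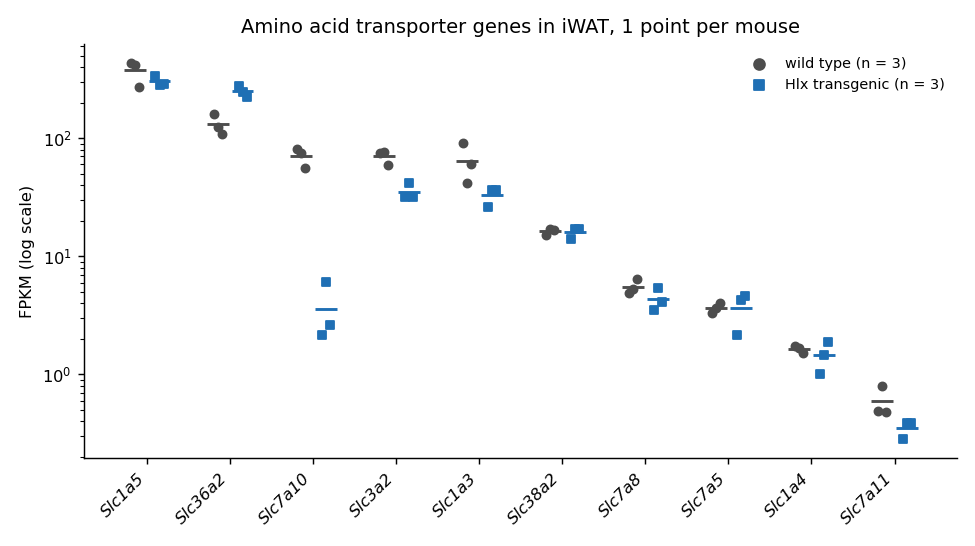
FPKM of the 10 amino acid transporter genes in each mouse (y axis, log scale), with grey circles for the 3 WT mice, blue squares for the 3 TG mice and a line at each group mean. *Slc7a10* lies at 55.6 to 81.0 FPKM in WT and 2.14 to 6.08 FPKM in TG iWAT, while *Slc36a2* is the gene whose TG values all lie above the WT values.

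*Slc3a2*, the gene of the heavy chain 4F2hc, had lower values in TG iWAT. It was listed on chromosome 19 from 8706881 to 8723369. It was at 31.8, 42.0 and 31.9 FPKM in TG mice 1, 2 and 3 and at 74.5, 76.8 and 59.7 FPKM in WT mice 1, 2 and 3. No TG mouse reached the lowest WT mouse, and TG mouse 2 was again the highest of its group. The means were 35.2 ± 5.85 FPKM in TG and 70.3 ± 9.27 FPKM in WT iWAT (SD, n = 3 each), with a log2 fold change of -0.98 (SE 0.15).

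The other light chains of 4F2hc in the list had low FPKM in both genotypes. *Slc7a5* encodes LAT1, an exchanger of large neutral amino acids, and was listed on chromosome 8 from 121881145 to 121907686. It was at 2.15, 4.23 and 4.63 FPKM in TG mice 1, 2 and 3 and at 3.34, 3.62 and 4.05 FPKM in WT mice 1, 2 and 3. The WT values lay within the TG range, and the log2 fold change was -0.04 (SE 0.22). *Slc7a8* encodes LAT2, a broader neutral amino acid exchanger, and was listed on 2 rows with 1 position, on chromosome 14 from 54722214 to 54781970. The row with the higher mean gave 3.50, 5.43 and 4.12 FPKM in TG mice and 4.87, 5.26 and 6.40 FPKM in WT mice 1, 2 and 3. The groups overlapped through TG mouse 2, with a log2 fold change of -0.29 (SE 0.15). The other row overlapped as well, at 2.49, 6.21 and 3.65 FPKM in TG and 7.04, 4.73 and 4.59 FPKM in WT mice.

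*Slc7a11* encodes xCT, the cystine and glutamate exchanger that supplies cysteine for glutathione, and was listed on chromosome 3 from 50364935 to 50443613. It was at 0.283, 0.387 and 0.387 FPKM in TG mice and at 0.494, 0.799 and 0.479 FPKM in WT mice 1, 2 and 3. All TG values lay below all WT values, but all 6 were under 1 FPKM and the gene was left out of the fit.

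The light chains that join 4F2hc (*Slc7a5*, *Slc7a6*, *Slc7a7*, *Slc7a8*, *Slc7a10* and *Slc7a11*) were summed in each mouse, since FPKM is scaled by transcript length. For *Slc7a8* only the row with the higher mean was counted. The row left out averaged 4.12 FPKM in TG and 5.45 FPKM in WT iWAT. The sum was 24.9 ± 4.46 FPKM in TG and 91.0 ± 11.8 FPKM in WT iWAT (SD, n = 3 each). *Slc7a10* made up 71.7% to 81.2% of it in WT mice and 10.4% to 20.8% in TG mice. Without *Slc7a10* the sum was 21.3 ± 2.67 FPKM in TG and 20.5 ± 1.67 FPKM in WT iWAT, and the groups overlapped. The summed light chains were 1.25 to 1.34 times the *Slc3a2* value in WT mice and 0.642 to 0.784 times it in TG mice. Leaving *Slc7a10* out reversed the order: the other light chains were 0.553 to 0.703 times the *Slc3a2* value in TG mice and 0.251 to 0.368 times it in WT mice. These sums hold the values that chose *Slc7a10*, so they are given without a test.

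**Figure D2:**
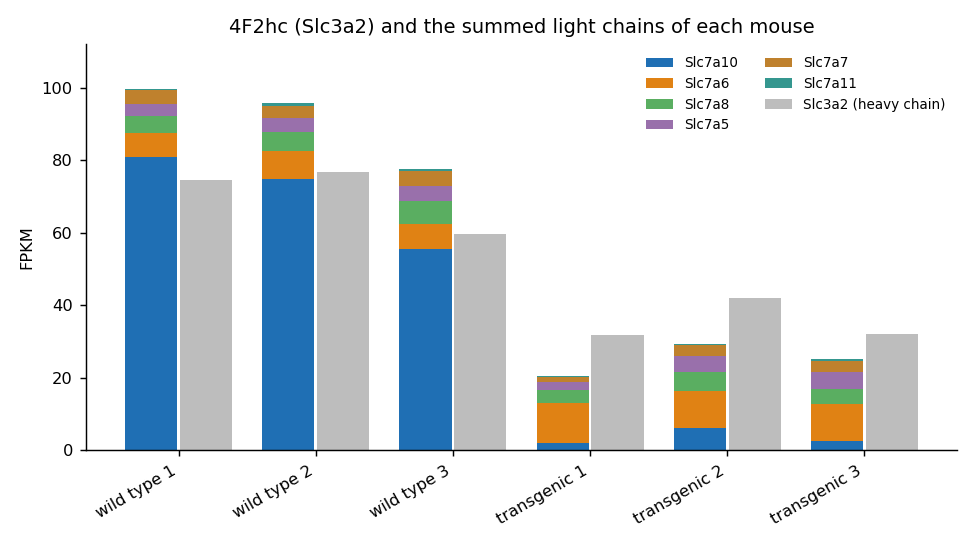
Summed FPKM of 6 light chain genes (stacked bars) and FPKM of the heavy chain gene *Slc3a2* (grey bars) in each of the 6 mice, on a linear y axis from 0. In WT mice *Slc7a10* (blue) fills 71.7% to 81.2% of the stack, which rises above *Slc3a2*, and in TG mice it fills 10.4% to 20.8% of a stack that stays below *Slc3a2*.

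*Slc36a2*, the gene of PAT2, which carries small amino acids such as glycine, alanine and proline together with protons, was the gene of the list with higher values in TG iWAT. It was listed on chromosome 11 from 55157723 to 55185134. Its values were 275, 247 and 225 FPKM in TG mice 1, 2 and 3 and 161, 125 and 108 FPKM in WT mice 1, 2 and 3. Every TG mouse was above every WT mouse. The means were 249 ± 25.1 FPKM in TG and 131 ± 27.2 FPKM in WT iWAT (SD, n = 3 each), with a log2 fold change of 0.93 (SE 0.16). The ratio of *Slc36a2* to *Slc7a10* FPKM was between 40.6 and 128 in TG mice and between 1.67 and 1.99 in WT mice. *P2rx5*, the purinergic receptor named above with PAT2, was at 14.4, 6.64 and 9.35 FPKM in TG mice and at 2.66, 2.61 and 1.48 FPKM in WT mice. Its log2 fold change was 1.74 (SE 0.27, limma adjusted p = 0.00699, adjusted over all tested loci). For reference, *Ucp1*, the uncoupling protein of brown fat, was at 541 to 634 FPKM in TG and 17.5 to 57.8 FPKM in WT iWAT, and the brown fat lipid droplet gene *Cidea* at 1498 to 2123 FPKM in TG and 106 to 164 FPKM in WT iWAT.

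The 3 sodium-dependent transporters of the Slc1 family differed in level and in pattern. *Slc1a5* encodes ASCT2, a glutamine and neutral amino acid exchanger, and was listed on chromosome 7 from 16781245 to 16799503. It was the most abundant of the 10 genes in both genotypes, at 333, 283 and 289 FPKM in TG mice and 434, 417 and 271 FPKM in WT mice 1, 2 and 3. WT mouse 3 lay below every TG mouse while WT mice 1 and 2 lay above them, and the log2 fold change was -0.28 (SE 0.19). With quantile normalization it was -0.62 and passed the call. *Slc1a4* encodes ASCT1, which exchanges alanine, serine, cysteine and threonine, and was listed on chromosome 11 from 20302179 to 20332713. It was at 1.01, 1.47 and 1.87 FPKM in TG mice and 1.74, 1.68 and 1.53 FPKM in WT mice, and the groups overlapped with a log2 fold change of -0.13 (SE 0.15).

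*Slc1a3* encodes GLAST, a glutamate and aspartate transporter best known from astrocytes, and was likewise listed on 2 rows, on chromosome 15 from 8634123 to 8710807. The row with the higher mean gave 26.0, 36.7 and 36.2 FPKM in TG mice and 91.7, 41.8 and 60.1 FPKM in WT mice 1, 2 and 3. The groups did not overlap, but WT mice varied widely and WT mouse 2 was near the TG mice. The means were 33.0 ± 6.04 FPKM in TG and 64.5 ± 25.2 FPKM in WT iWAT (SD, n = 3 each), with a log2 fold change of -0.89 (SE 0.28). It was -1.16 without WT mouse 2, and only there and with quantile normalization, at -0.97, did *Slc1a3* pass the call. The other row showed the same order of the groups, at 5.02, 6.87 and 6.58 FPKM in TG and 20.6, 10.3 and 14.9 FPKM in WT mice, and the sum of both rows did not overlap between the groups.

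*Slc38a2* encodes SNAT2, a sodium-coupled transporter of alanine, serine and glutamine that many cells raise when amino acids are short. It was listed on chromosome 15 from 96687391 to 96699698. It was at 14.1, 17.1 and 16.9 FPKM in TG mice and 15.1, 17.2 and 16.6 FPKM in WT mice, and the groups overlapped. Its log2 fold change, -0.02 (SE 0.10), was the nearest to 0 of the 9 genes fitted.

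Of the 9 genes fitted, *Slc36a2* passed the call as higher in TG iWAT and *Slc7a10* and *Slc3a2* as lower, at an adjusted p under 0.05 in limma. Over all tested loci, 11.6% passed as higher and 7.03% as lower. The groups did not overlap for 1 gene that was higher (*Slc36a2*) and 3 that were lower (*Slc7a10*, *Slc3a2* and *Slc1a3*), and over all tested loci this was so for 22.8% and 20.1%. Because the list was selected on this contrast, nothing is read from these shares. The median log2 fold change was -0.28 over the 9 genes and -0.01 over all tested loci. *Slc7a10*, *Slc3a2* and *Slc36a2* passed under each alternative setting run, which describes the processing and is no test of genes selected on this contrast. For any 1 gene, the smallest two-sided p that exact permutation of 3 and 3 mice allows is 0.1.

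In order of mean FPKM, WT iWAT had *Slc1a5*, *Slc36a2*, *Slc7a10*, *Slc3a2*, *Slc1a3*, *Slc38a2*, *Slc7a8*, *Slc7a5*, *Slc1a4* and *Slc7a11*. In this order the values of *Slc7a10* overlapped those of *Slc3a2*, and those of *Slc3a2* overlapped those of *Slc1a3*, while the other neighbours did not overlap. In TG iWAT, *Slc1a5* and *Slc36a2* were again first and second, and *Slc7a10* took the eighth place instead of the third. There its values overlapped those of *Slc7a5* and stood above those of *Slc1a4*. *Slc7a8* overlapped *Slc7a5*, and *Slc3a2* overlapped *Slc1a3*.

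Summed over these 10 genes and the 47 other amino acid transporter genes of the table, transporter RNA was 842 ± 48.1 FPKM in TG and 947 ± 142 FPKM in WT iWAT (SD, n = 3 each), and the groups overlapped. Each gene entered the sum by its row with the highest mean. *Slc7a10* held 0.24%, 0.728% and 0.327% of this sum in TG mice 1, 2 and 3 and 7.53%, 7.72% and 6.99% in WT mice 1, 2 and 3. *Slc36a2* held 28.2% to 30.8% in TG mice and 12.9% to 14.99% in WT mice. *Slc1a5* held the largest share, 33.9% to 37.3% in TG and 34.1% to 43.0% in WT mice, and overlapped between the groups.

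Of 48 other amino acid transporter genes listed for comparison, 47 were in the table and 20 were fitted. Here 1 was higher and 2 were lower in TG iWAT (limma adjusted p under 0.05), beside 11.6% and 7.03% of all tested loci. The other 17 fitted did not pass, and the median log2 fold change of the 20 was -0.08. The 27 that were not fitted were under the filter. *Slc7a6*, the gene of the light chain y+LAT2, which exchanges cationic for neutral amino acids, was at 10.9, 10.2 and 10.2 FPKM in TG mice and 6.39, 7.72 and 6.78 FPKM in WT mice. Its log2 fold change was 0.53 (SE 0.09, adjusted p = 0.00895). *Slc43a1*, the gene of LAT3, which carries branched-chain and other large neutral amino acids without exchange, was at 7.44, 11.7 and 11.2 FPKM in TG mice and 36.0, 20.6 and 33.8 FPKM in WT mice. After *Slc7a10* it had the most negative log2 fold change of the transporters fitted, -1.47 (SE 0.24, adjusted p = 0.00836). *Slc7a2*, the gene of the cationic amino acid transporter CAT2, had a log2 fold change of -0.51 (SE 0.11, adjusted p = 0.0238). The *Slc7a2* call was lost without TG mouse 1, TG mouse 3, WT mouse 1 or WT mouse 3 (adjusted p = 0.0576 to 0.0835). Leaving out 1 mouse also changed the calls over all loci, from 1352 higher and 822 lower to 780 to 1295 higher and 329 to 906 lower. Whether a lost call, here or below, reflects the mouse left out or the smaller group was not tested. The most abundant of the comparison genes, *Slc38a10*, was at 76.4 ± 7.20 FPKM in TG and 67.7 ± 6.10 FPKM in WT iWAT (SD, n = 3 each), and the taurine transporter gene *Slc6a6* at 17.0 ± 0.786 and 18.2 ± 1.28 FPKM. Neither passed (limma adjusted p = 0.289 and 0.447).

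**Figure D3:**
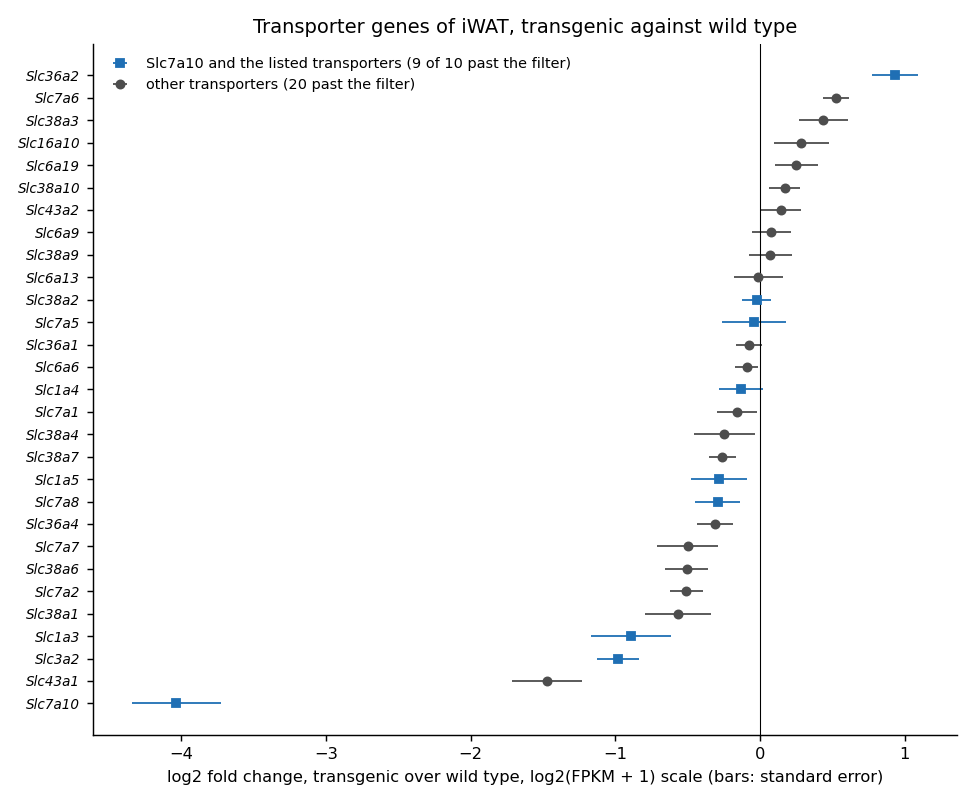
Log2 fold change, TG over WT, on the log2(FPKM + 1) scale (x axis; bars, standard error) of the 29 transporter genes that passed the filter, with blue squares for *Slc7a10* and the 8 genes listed with it and grey circles for the 20 comparison genes. *Slc7a10* lies alone at -4.03, the next lowest is *Slc43a1* at -1.47, and *Slc36a2* is highest at 0.93.

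None of the fitted genes around *Slc7a10* on chromosome 7 passed the call. Within 250 kb of its locus the table had 8 others, of which 7 were fitted and 0 passed in limma, while 1 had an unadjusted p under 0.05. Over all tested loci 11.6% passed as higher and 7.03% as lower, so 0 of 7 says little. The groups did not overlap for 3 of the 7, *Cebpa* and *Gpatch1* being lower and *Rhpn2* higher. Over all tested loci, 22.8% were higher and 20.1% lower without overlap. *Cebpa*, the gene of an adipocyte transcription factor, was at 244, 207 and 212 FPKM in TG mice and 245, 248 and 265 FPKM in WT mice, all TG values being lower, with a log2 fold change of -0.20 (adjusted p = 0.209). With quantile normalization *Cebpa* passed as lower, at -0.52. The adjusted p was 0.199 for *Pepd*, 0.382 for *Cebpg*, 0.558 for *Lrp3*, 0.157 for *Gpatch1*, 0.137 for *Rhpn2* and 0.364 for *Ccdc123*. *Slc7a9*, another light chain of the same family, known from kidney and gut, was at 0 FPKM in all 6 mice.

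The deposited locus of *Slc7a10* is also that of *Lrp3*. In the GENCODE M21 annotation of the same build, *Slc7a10* runs from 35186385 to 35201114 on the plus strand of chromosome 7 and *Lrp3* from 35200027 to 35215498 on the minus strand. They share 377 exon bases, 17.9% of the 2111 exon bases of *Slc7a10*, and the library kit does not mark the strand, so reads from the shared bases cannot be told apart. *Lrp3* was at 4.93, 6.87 and 6.32 FPKM in TG mice and 6.83, 6.04 and 6.72 FPKM in WT mice, close to the level of *Slc7a10* in TG mouse 2. How far *Lrp3* reads add to the *Slc7a10* values was not tested.

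**Figure D4:**
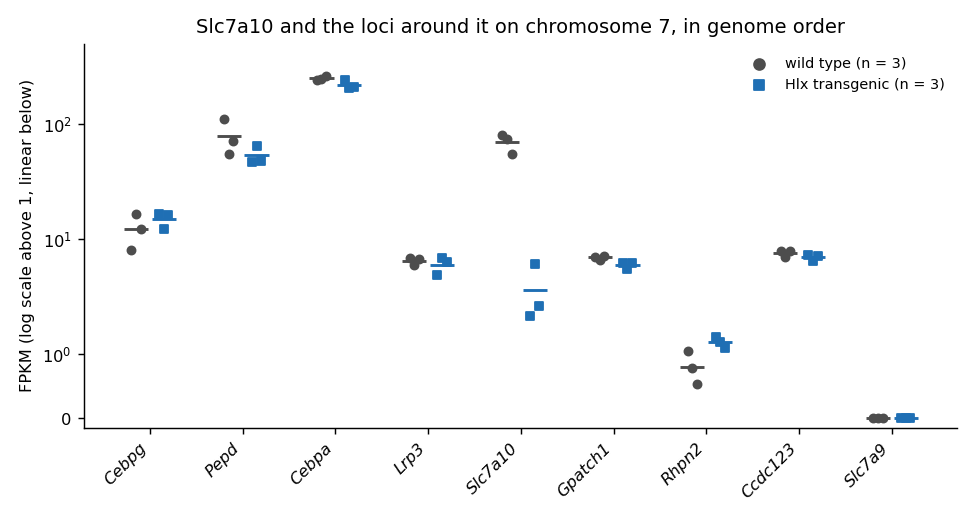
FPKM of *Slc7a10* and the 8 loci within 250 kb of it, in genome order, in each mouse (y axis, log scale above 1 FPKM and linear below), with grey circles for WT, blue squares for TG (n = 3 each) and a line at each mean. The group means of *Slc7a10* lie at 3.61 FPKM in TG and 70.5 FPKM in WT iWAT, no other locus shown passed the call, and *Slc7a9* is at 0 FPKM in every mouse.

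The loci whose profile over the 6 mice lay nearest to that of *Slc7a10* were *Serpina3n*, *Rps28*, *Agt*, *Ccdc80* and *Ffar2*. The measure was the root mean square difference of log2(FPKM + 1) values, each centred on the gene's own mean, and it was 0.484, 0.506, 0.587, 0.862 and 0.874 for these 5, with a median of 2.05 over the 11691 loci compared. A gene with the same value in all 6 mice would lie at 2.055. The profile of *Slc7a10* holds the genotype difference by which it was chosen, so nearness to it mostly reflects a large fall in TG mice. *Serpina3n*, a secreted serine protease inhibitor, was at 6.52, 14.8 and 8.80 FPKM in TG mice and 80.7, 122 and 87.3 FPKM in WT mice. *Agt*, the gene of angiotensinogen, was at 0.801 to 1.95 FPKM in TG mice and 17.1 to 32.9 FPKM in WT mice, and *Ffar2*, a receptor for short-chain fatty acids, at 2.31 to 3.09 FPKM and 17.3 to 18.7 FPKM. *Ccdc80*, the gene of a secreted matrix protein, was at 5.22 to 15.7 FPKM in TG and 61.5 to 97.2 FPKM in WT mice. The table lists *Rps28*, a ribosomal protein gene that all cells use, at 8.12e-06, 0.947 and 0.000128 FPKM in TG mice and at 9.42, 13.7 and 6.997 FPKM in WT mice, and such values near 0 can be failed estimates.

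In this bulk tissue, fewer cells of a type and less RNA per cell cannot be told apart. The cell type markers were therefore read beside the transporter values. Over all tested loci, 11.6% passed as higher and 7.03% as lower, so 1 call in a list of 4 to 10 markers says little. Without overlap, 22.8% of all tested loci were higher and 20.1% lower. The adipocyte markers (8 in the table) summed to 28507 to 33884 FPKM in TG and 24271 to 29971 FPKM in WT mice and overlapped. *Fabp4* made up most of this sum, at 24561 to 29363 FPKM in TG and 19297 to 23539 FPKM in WT mice. The sum therefore says little of the other markers. Of the 8 markers, 1 passed as lower, *Adipoq*, the adiponectin gene. All TG values of *Cebpa* were lower, and *Plin1*, *Lipe*, *Cidec*, *Pparg* and *Lep* overlapped. The macrophage markers summed to 613, 901 and 645 FPKM in TG mice and 1259, 1111 and 1516 FPKM in WT mice. Of these 9 markers, 4 were called lower. The largest part was *Lyz2*, at 262 to 384 FPKM in TG and 593 to 755 FPKM in WT mice. The separation of this sum leans on *Lyz2*. *Adgre1*, *Cd68*, *Csf1r*, *Mrc1* and *Itgam* were also lower without overlap, while *Cd14*, *C1qa* and *C1qb* overlapped. The fibroblast and progenitor markers summed to 1413, 1929 and 1504 FPKM in TG and 2394, 2029 and 2169 FPKM in WT mice, and 1 of 10, *Dpt*, was lower. In the macrophage sum and in the fibroblast and progenitor sum, no TG mouse reached a WT mouse. TG mouse 2 was the highest TG mouse in both sums, as for *Slc7a10*, *Slc3a2* and *Slc1a3*. Among WT mice the macrophage sum was highest in mouse 3, where *Slc7a10* and *Slc3a2* were lowest. The fibroblast and progenitor sum and *Slc1a3* were both highest in WT mouse 1 and lowest in WT mouse 2. The separation of the fibroblast and progenitor sum leans on *Dpt*, at 172 to 249 FPKM in TG and 458 to 577 FPKM in WT mice. In that list *Dcn* and *Dpp4* were also lower without overlap. *Pdgfra*, *Col1a1*, *Col1a2*, *Lum*, *Pi16*, *Cd34* and *Ly6a* overlapped between the groups. The WT mean was 1.80-fold the TG mean for the macrophage sum and 1.36-fold for the fibroblast and progenitor sum, against 19.5-fold for *Slc7a10*, 2.00-fold for *Slc3a2* and 1.96-fold for *Slc1a3*. The endothelial marker sum was higher in TG mice, at 179 to 193 against 165 to 176 FPKM, with 2 of 8 markers called higher. These were *Kdr* and *Emcn*, and *Cdh5* and *Tie1* were also higher without overlap. *Vwf* was lower without overlap, at 1.25 to 2.13 FPKM in TG and 2.54 to 3.12 FPKM in WT mice. *Pecam1*, *Tek* and *Egfl7* overlapped. The lymphocyte markers (187 to 286 FPKM in TG, 276 to 395 FPKM in WT, 1 of 8 lower), epithelial markers (144 to 278 FPKM in TG, 236 to 323 FPKM in WT, 0 of 9 called) and Schwann cell markers (143 to 157 FPKM in TG, 123 to 204 FPKM in WT, 1 of 4 higher) overlapped. The skeletal muscle markers were at 105, 767 and 153 FPKM in TG mice and 9.42, 165 and 47.2 FPKM in WT mice, with 0 of 9 called. TG mouse 2 was the highest TG mouse for the lymphocyte, Schwann cell and skeletal muscle sums too. No marker in any of these lists was at 0 in all 6 mice. The part of other cell types in the transporter values was not tested.

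Among the genes that make and use serine and glycine, both carried by ASC-1, changes ran in both directions. In TG iWAT 5 of the 11 fitted were higher and 3 lower (limma adjusted p under 0.05), beside 11.6% and 7.03% of all tested loci. The median log2 fold change of the 11 was 0.33. The lower ones were *Psat1* and *Phgdh* of serine synthesis and *Gldc* of the glycine cleavage system. *Psat1* was at 20.9 ± 2.84 FPKM in TG and 44.6 ± 4.05 FPKM in WT iWAT (SD, n = 3 each), which is -1.07 as log2 fold change (SE 0.12, adjusted p = 0.00215). *Gldc* was at 0.886 ± 0.230 and 3.04 ± 0.353 FPKM, a log2 fold change of -1.10 (adjusted p = 0.00275). For *Phgdh* it was -0.48 (adjusted p = 0.0252), and its call was lost without TG mouse 3, WT mouse 1, WT mouse 2 or WT mouse 3 (adjusted p = 0.0521 to 0.0777). The higher ones were the serine dehydratase-like gene *Sdsl* (log2 fold change 1.48), *Dld* and *Gcsh*, which code for other proteins of the glycine cleavage system (1.46 and 0.87), *Shmt1*, which interconverts serine and glycine (1.03), and the serine racemase gene *Srr* (0.65). Their adjusted p lay between 0.00139 for *Shmt1* and 0.00699 for *Sdsl*. *Srr* was listed over a long locus, on chromosome 11 from 74897196 to 75170255. Whether other genes there add to its value was not tested. *Dld*, which is also a subunit of other mitochondrial dehydrogenases, was the most abundant of the list, at 397 ± 73.1 FPKM in TG and 143 ± 18.0 FPKM in WT iWAT.

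Of 15 fitted genes of glutathione and cysteine metabolism, 5 were higher and 2 lower, beside 11.6% and 7.03% of all tested loci. The median log2 fold change of the 15 was -0.06. *Cdo1*, which oxidizes cysteine, was at 635 ± 51.9 FPKM in TG and 1164 ± 105 FPKM in WT iWAT (SD, n = 3 each), which is -0.87 as log2 fold change (adjusted p = 0.00621), and *Ggt5*, which cleaves extracellular glutathione conjugates, had -0.91 (adjusted p = 0.00903). *Oplah*, the 5-oxoprolinase gene, rose by 1.46 on this scale (adjusted p = 0.00215), and the glutathione peroxidase gene *Gpx4* had 1.21 (adjusted p = 0.0031). *Gpx4* was listed over a long locus, on chromosome 10 from 79697304 to 80369637. Whether other genes there add to its value was not tested. *Gss*, *Gclm* and *Txnrd1*, genes of glutathione synthesis and thioredoxin reduction, had 0.53, 0.43 and 0.30 (adjusted p = 0.0324, 0.0151 and 0.0257). The calls of *Gss* and *Txnrd1* were each lost without TG mouse 1, TG mouse 3 or any 1 WT mouse (adjusted p = 0.0714 to 0.103 for *Gss* and 0.063 to 0.0882 for *Txnrd1*), and that of *Gclm* without TG mouse 3 (adjusted p = 0.0572). *Gss* also lost its call with no filter on low values (adjusted p = 0.0574). *Csad*, a taurine synthesis gene, was among the most abundant of the list and did not pass (adjusted p = 0.768).

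Glutamine and glutamate, carried by ASCT2, SNAT2 and GLAST, are handled by 11 fitted genes, of which 0 were higher in limma (1 at an unadjusted p under 0.05) and 2 lower. Over all tested loci these shares were 11.6% and 7.03%. The median over the 11 was -0.03 on the log2 scale. For *Oat*, ornithine aminotransferase, it was -0.52 (adjusted p = 0.00927). *Gpt2*, the mitochondrial alanine aminotransferase, had -0.59 (adjusted p = 0.0293), and its call was lost without TG mouse 2, TG mouse 3, WT mouse 1 or WT mouse 2 (adjusted p = 0.0519 to 0.0946). The glutamine synthetase gene *Glul* was the most abundant, at 858 ± 109 FPKM in TG and 650 ± 139 FPKM in WT iWAT (adjusted p = 0.155). *Gpt* and *Glud1* did not pass (adjusted p = 0.0736 and 0.294), but *Gpt* passed as lower with quantile normalization and without TG mouse 1, with log2 fold changes of -0.63 and -0.65.

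**Figure D5:**
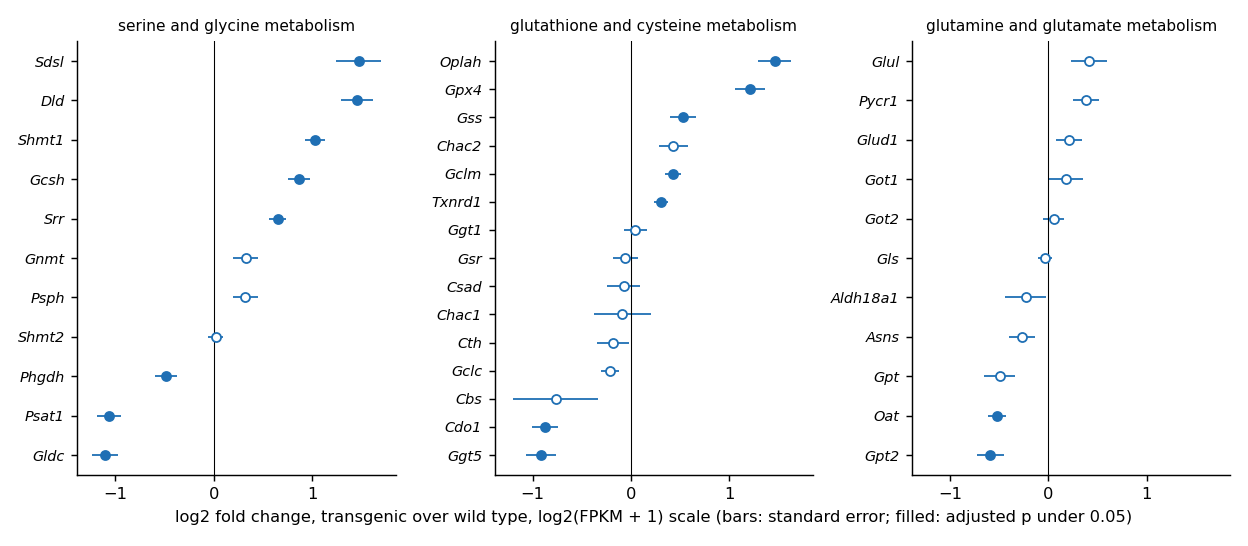
Log2 fold change, TG over WT, on the log2(FPKM + 1) scale (x axis; bars, standard error) of the fitted genes of serine and glycine, glutathione and cysteine, and glutamine and glutamate metabolism, with filled circles where the limma adjusted p was under 0.05. Changes run in both directions in the first 2 panels, from *Gldc* at -1.10 to *Sdsl* at 1.48 and from *Ggt5* at -0.91 to *Oplah* at 1.46, and in the last panel only *Oat* and *Gpt2* are filled.

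Amino acid sensing and the response to amino acid shortage, through which cells adjust transporter genes such as *Slc7a5*, *Slc7a11*, *Slc3a2* and *Slc38a2*, were read from 2 more lists. Of 22 fitted sensing genes, 1 was higher and 2 lower, beside 11.6% and 7.03% of all tested loci. The median log2 fold change of the 22 was 0.09. *Mtor*, the kinase that amino acids activate, was at 21.1 ± 0.899 FPKM in TG and 10.4 ± 0.264 FPKM in WT iWAT (SD, n = 3 each), which is 0.95 as log2 fold change (SE 0.07, adjusted p = 0.000654). *Sesn2*, a leucine sensor, and its relative *Sesn1* had log2 fold changes of -0.63 and -0.39 (adjusted p = 0.0133 and 0.0124), and the call was lost without TG mouse 3 for *Sesn2* (adjusted p = 0.0513) and without WT mouse 2 for *Sesn1* (adjusted p = 0.0521). The most abundant sensing genes, *Lamtor2*, *Rragc* and *Rraga*, did not pass (adjusted p = 0.287, 0.567 and 0.555).

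Of 20 fitted genes of the amino acid response, 2 were higher and 3 lower, beside 11.6% and 7.03% of all tested loci. The median log2 fold change of the 20 was -0.11. The higher ones were *Cebpb*, with a log2 fold change of 0.57 (adjusted p = 0.00451), and *Atf3*, with 0.78 (adjusted p = 0.0308). The *Atf3* call was lost without TG mouse 1, TG mouse 2 or any 1 WT mouse (adjusted p = 0.0525 to 0.0996) and with no filter (adjusted p = 0.0553). The lower ones, *Psat1*, *Phgdh* and *Sesn2*, are those already named in other lists. *Atf4*, the transcription factor that binds CARE, was at 115 ± 17.0 FPKM in TG and 103 ± 2.61 FPKM in WT iWAT and did not pass (adjusted p = 0.409). The most abundant genes of the list, *Eif4ebp1*, *Nupr1* and *Atf5*, did not pass either (adjusted p = 0.137, 0.31 and 0.0918), though *Eif4ebp1* passed as lower with quantile normalization, with a log2 fold change of -0.65. Of the transporters whose promoters hold a CARE match, *Slc1a4* overlapped between the genotypes, and *Slc7a11* stayed under 1 FPKM in both.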

How the data were processed

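The authors made libraries with an unstranded TruSeq kit, mapped single-end reads to mm10 and quantified genes. The submitters' processing notes name CASAVA 1.8.2, TopHat2 2.0.9, Bowtie2 2.1.0 and Cufflinks 2.2.1, and the annotation and options are not given in the sources used here. The authors deposited FPKM per gene and mouse, and no other values were used. From these, log2(FPKM + 1) was computed for loci with a mean above 1 FPKM in at least 1 genotype and fitted with limma 3.58.1 in R 4.3.3 (trended eBayes, two-sided, Benjamini-Hochberg adjustment over all 11692 loci, n = 3 mice per genotype), after a test on simulated data. Promoters came from RefSeq and positions from GENCODE M21.

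The genes and the comparison lists were chosen with earlier results of these data known. Named were all 10 transporters, the reference genes, up to 5 rises and 5 falls among the called genes of each list and its 3 most abundant genes, the loci within 250 kb of *Slc7a10* and the 5 nearest profiles. *Atf4* and the single cell type markers other than *P2rx5* and *Cebpa* were named after their values were seen. Alternatives were another pseudocount, 2 other filters, quantile or median-ratio scaling, a replicate block and each mouse left out.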

Additional observations from a re-analysis of the deposited data

How the results depend on the processing

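With quantile normalization, 4 of the 9 fitted transporters passed as lower (*Slc7a10*, *Slc3a2*, *Slc1a3* and *Slc1a5*), against 2 as reported. Under this setting 1 gene of glutamine and glutamate metabolism passed as higher (0 as reported) and 1 neighbour of *Slc7a10* as lower (0 as reported). Over all 11692 tested loci, lower calls went from 822 to 1083 and higher calls from 1352 to 1300. Quantile normalization turned the log2 fold changes of *Lamtor2* to -0.11, *Nupr1* to -0.11, *Rraga* to -0.021 and *Rragc* to -0.00055, and made that of *Slc36a2* 0.69. With no filter, 1 gene of the amino acid response was higher (2 as reported), beside 1151 of all 15860 loci fitted (1352 of 11692 as reported). Over the 10 transporters alone, the WT share of *Slc7a10* was 9.55%. The cause of these shifts was not tested. With single mice left out, 2 to 3 of the 9 fitted transporters were lower, and 1 to 2 of the other transporters. In glutathione and cysteine metabolism 2 to 5 were higher. In glutamine and glutamate metabolism 0 to 1 were higher and 1 to 3 lower. In sensing 1 to 2 were higher and 1 to 2 lower, and in the response 1 to 2 were higher. Over all tested loci the same fits called 780 to 1295 as higher and 329 to 906 as lower. The *Csad* log2 fold change ran from -0.17 to 0.11 (without WT mouse 1) and the *Lrp3* log2 fold change from -0.19 to 0.012 (without TG mouse 1). The *Slc7a10* log2 fold change stayed between -4.39 and -3.80 over the 12 alternatives. As a log2 ratio of mean FPKM with no pseudocount, chosen after seeing the data, it was -4.29. Same-numbered mice share only a number (r = 0.01, 0.03 and 0.07 between their deviations). The replicate block left 1 lower gene among the other transporters (2 as reported), beside 656 lower over all tested loci (822 as reported). The *Slc7a2* call was lost there (limma adjusted p = 0.0532), and *Gss* lost its call too (adjusted p = 0.0527). Low depth in TG mice 1 and 3 limits genes under 1 FPKM, such as *Slc7a11*.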
